A study of Mus musculus with 6 samples.

Results

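The microRNAs (miRNAs) miR-144, miR-451 and miR-486, which are known from red blood cell precursors, were examined in osteoclasts, the cells that resorb bone and that arise from the myeloid lineage. They were chosen by name, as the guide-strand assays of these 3 miRNAs, and are 3 of the 709 assays of the deposited real-time PCR array. All 3 had a value in every sample, as did 95 of the 709 assays. The array was run on RNA from mouse bone marrow cells sorted with magnetic beads as OSCAR+CTR+ osteoclasts. The 3 samples called intact here (OCmiR-Intact) came from control mice whose osteoclast miRNAs were intact. The 3 called knockdown (OCmiR-KD) came from mice in which osteoclast miRNAs had been knocked down. The sources used here do not name the gene or agent behind the knockdown, nor the strain, age or sex of the mice. The design text speaks of pooled RNA of 3 mice per group, so the 3 samples of a group may be separate mice or repeat measurements of a pool. The p-values therefore reflect the spread among these samples alone, and that spread may be technical.

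miRNAs are short RNAs that guide Argonaute proteins to messenger RNAs and repress them, mainly through the seed near their 5′ end. miR-144 and miR-451 are cut from one primary transcript that the erythroid factor GATA1 switches on, and both rise as red cells mature. The hairpin of miR-144 is cut by Drosha and then by Dicer, as for most miRNAs. That of miR-451 is too short for Dicer and is cut by the Argonaute protein Ago2 instead, which makes miR-451 the standard example of a Dicer-independent miRNA. miR-451 represses Ywhaz and so guards red cells against oxidative stress, and miR-144 targets Nfe2l2, a regulator of antioxidant genes. miR-486 arises from the Ank1 locus, which encodes a membrane protein of red cells, and is also known from muscle.

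The mature sequences that the deposited table gives for the 3 assays are shown because they define what each assay was designed to read. Capitals mark the seed, bases 2 to 8 from the 5′ end.
mmu-miR-144: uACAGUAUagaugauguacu
mmu-miR-451: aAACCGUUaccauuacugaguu
mmu-miR-486: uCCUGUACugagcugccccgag
The 3 seeds differ from each other, and 0 other assays of the 709 share any of them. The assays of miR-101a and miR-101b have the same bases 2 to 7 as miR-144 and depart at base 8, as their sequences show.
miR-101a: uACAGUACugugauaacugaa
miR-101b: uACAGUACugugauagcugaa
Neither had a value in any sample. By edit distance the nearest sequence on the array was 7 edits from miR-144 (miR-337-3p), 8 from miR-451 (miR-295) and 8 from miR-486 (miR-187), and these 3 assays had no values either. Of the 20 bases of miR-144, 6 were G or C (30%). miR-451 had 8 of 22 (36.4%) and miR-486 had 14 of 22 (63.6%).

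Of the 3 deposited sequences, 2 matched a mature sequence of RefSeq exactly (build GRCm38.p6). The miR-144 assay matched miR-144-3p, and the miR-451 assay matched miR-451a. The hairpin genes Mir144 (chr11:78073005-78073070) and Mir451a (chr11:78073170-78073241) both lie on the plus strand with 99 bases between them. The hairpins are printed because the place of the mature sequence, in capitals, sets this pair apart.
Mir144: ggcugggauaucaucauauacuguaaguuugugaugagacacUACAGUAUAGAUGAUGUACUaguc
Mir451a: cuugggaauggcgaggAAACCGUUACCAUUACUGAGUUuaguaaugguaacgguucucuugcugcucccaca
In the fold predicted by RNAfold, all 20 bases of miR-144 lay on the 3′ side of the terminal loop. In Mir451a the 22 bases of miR-451 ran up the 5′ side for 18 bases and took in all 4 bases of the terminal loop. The opposite strand of Mir451a is annotated as another hairpin gene, Mir451b, with a different mature product, miR-451b (uGGGAGCAgcaagagaaccgu). The star strand of miR-144, miR-144-5p (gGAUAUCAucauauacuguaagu), and miR-451b are not among the 709 assays by sequence. In the RefSeq gene table Mir486 lies within the span of Ank1.

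**Figure D1:**
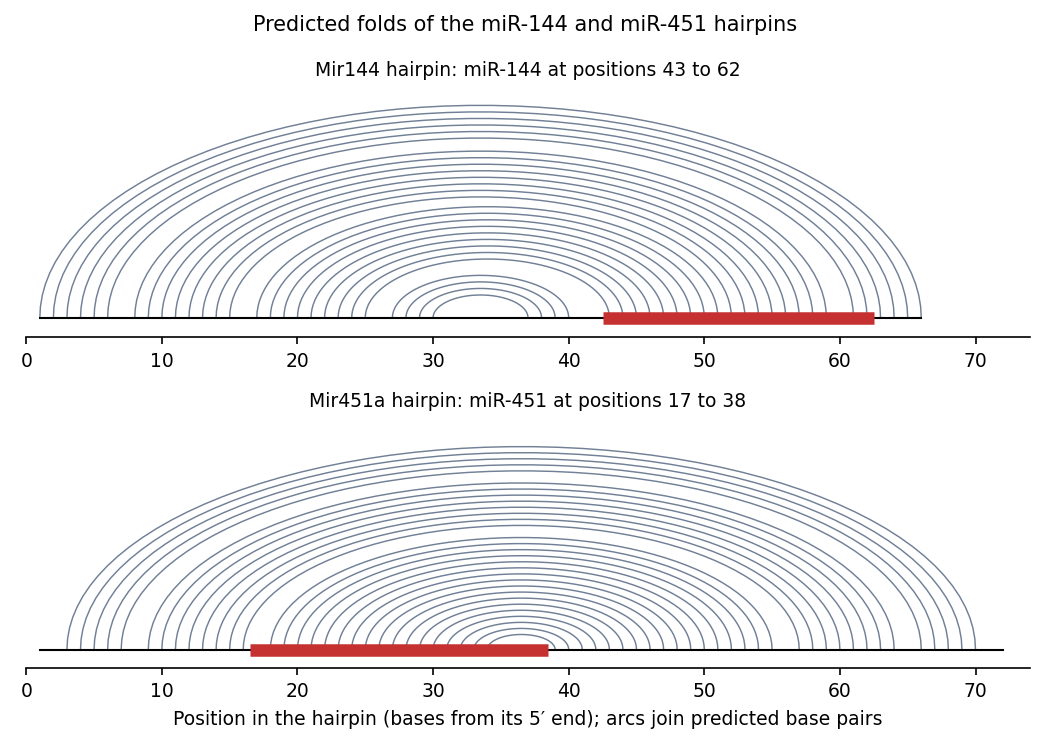
Predicted base pairs (arcs) along the Mir144 and Mir451a hairpins, with position in bases from the 5′ end on the x axis and the mature sequence as a red bar. The bar of miR-144 covers positions 43 to 62 on the 3′ side, while that of miR-451 covers positions 17 to 38 and ends at the last base of the loop.

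The level of a miRNA is minus its delta Ct, a log2 value set against U6, a small nuclear RNA read on the same plate. Ct is the cycle at which fluorescence crosses the threshold, so a later Ct stands for less template. All 3 assays are on plate 1. The mean Ct of U6 there was 29.7 cycles in the intact and 30.3 cycles in the knockdown group. Primers differ between assays, so the order of the 3 is one of assay readings and not of abundance. In knockdown samples the linear levels of each of the 3 assays average 1.00 relative to U6, to within 0.001. With U6 of plate 1 as the reference for all assays, the same holds for 88 of the 95 measured assays, and for 0 of the 95 in intact samples. The knockdown mean is thus not a measurement of its own, and "fell" is used below only for deposited intact values that lie above that mean and pass the test. For such assays the single-assay p-values below mainly set the intact level against a fixed mean. They are no test of a response to the knockdown. How the 3 knockdown samples divide that mean varies between assays, but with the mean fixed each value follows from the others of its group. The sources used here do not state which step set the mean, so whether the division was measured is not known. In a bulk sample, moreover, fewer cells of a type and less RNA per cell cannot be told apart.

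miR-144 stood at 3.56, 3.37 and 3.56 log2 units above U6 in intact samples 1, 2 and 3. In the knockdown samples it stood at -2.87, -3.03 and 1.45. Knockdown samples 1 and 2 lay far below U6, sample 3 lay above it, and all 3 lay below every intact sample. In cycles, miR-144 crossed at a Ct of 25.7, 26.2 and 26.8 in intact and at 34.0, 33.6 and 27.9 in knockdown samples. Intact samples 1 and 3 have an identical delta Ct. Of the 95 assays, 2 have any such repeat within the intact group, and 9 have one within the intact or the knockdown group. The intact mean was 3.50 ± 0.11 and the knockdown mean -1.48 ± 2.54 (SD, n = 3 each). The difference was -4.98 (SE 1.16, 95% interval -7.67 to -2.29, limma adjusted p = 0.00411 over the 95 assays), so miR-144 fell in the sense given above. Of the 95 assays, 84.2% passed as lower in knockdown samples and 82.1% had every knockdown sample below every intact one, so its call is shared with most of the array. The median difference of all assays was -4.54, close to that of miR-144. Without knockdown sample 3 the difference was -6.44, and without sample 1 or 2 it was -4.28 or -4.20. When each sample was centred on the mean Ct of its measured miRNAs, the difference was -0.49 and did not pass (limma adjusted p = 0.809).

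miR-451, made from the same transcript as miR-144, differed less between the groups. Its levels were 1.84, 1.83 and 2.30 in intact samples and -0.96, -0.18 and 0.68 in knockdown samples. All knockdown samples lay below all intact samples, and sample 3 was again the highest of the knockdown group. The Ct was 27.4, 27.7 and 28.0 in intact and 32.1, 30.7 and 28.7 in knockdown samples. The intact mean was 1.99 ± 0.27 and the knockdown mean -0.15 ± 0.82 (SD, n = 3 each). miR-451 fell by 2.14 (SE 0.57, limma adjusted p = 0.00798), with a 95% interval of the difference from -3.47 to -0.81. By size this was rank 79 of the 95 differences, counted from the lowest, while miR-144 had rank 39. With the knockdown mean fixed, a lower intact level gives a smaller fall and a higher centred value by construction. By intact level, counted from the highest, miR-451 had rank 79 and miR-144 rank 65. Whether miR-451 was spared in the knockdown was therefore not tested. Centred on the measured miRNAs, the direction turned: miR-451 lay 2.34 above the mean change (SE 0.57, limma adjusted p = 0.0164), which 20% of the assays did past the threshold. Quantile normalization of the levels gave 1.59 without passing (limma adjusted p = 0.233).

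miR-486 did not pass. Its levels were -0.75, 0.06 and -1.06 in intact and -0.34, 0.61 and -0.56 in knockdown samples. The groups overlapped, and sample 2 was the highest in each. The Ct was 30.0, 29.5 and 31.4 in intact and 31.5, 29.9 and 29.9 in knockdown samples, and the means lay 0.12 cycles apart. The intact mean was -0.58 ± 0.58 and the knockdown mean -0.09 ± 0.62 (SD, n = 3 each). The difference of 0.49 (SE 0.57, limma adjusted p = 0.452) had a 95% interval from -0.83 to 1.81, and any value in that range lies within its error. It was the highest of the 95 differences, of which 92 were below 0. Only 4 assays had an intact mean below U6, namely miR-486, miR-138, miR-293 and miR-470, and 0 of these passed. Centred on the measured miRNAs, miR-486 lay 4.97 above the mean change (SE 0.60, limma adjusted p = 0.0012), rank 1 of 95. After quantile normalization it was 4.16 higher (SE 0.80, limma adjusted p = 0.0305), where 8.42% of the assays passed as higher and 5.26% as lower. With the knockdown mean held at U6, an assay that reads near U6 in intact samples lies above the mean change by construction.

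**Figure D2:**
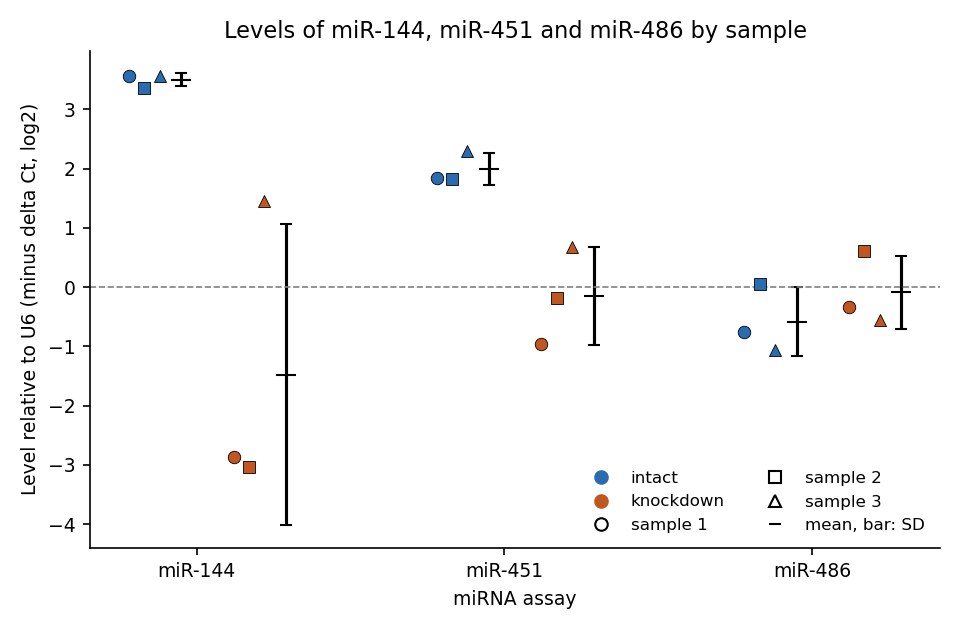
Level of each miRNA assay relative to U6 (minus delta Ct, log2) in the 3 intact and 3 knockdown samples (points, shape by sample number), with the group mean and SD as bars. miR-144 and miR-451 do not overlap between the groups, knockdown sample 3 of miR-144 stands at 1.45 against -2.87 and -3.03, and miR-486 overlaps.

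The comparison of the Dicer-cut miR-144 with its Ago2-cut partner was made within each sample, where U6 drops out because both assays share a plate. miR-144 read 1.72, 1.53 and 1.26 log2 units above miR-451 in the intact samples. The difference was -1.91 and -2.85 in knockdown samples 1 and 2, where miR-144 read lower, and 0.77 in knockdown sample 3. Every knockdown value was below every intact value, but sample 3 kept the intact sign. The intact mean was 1.50 ± 0.23 and the knockdown mean -1.33 ± 1.88 (SD, n = 3 each). The change was -2.83, or 7.13-fold, between mean log2 levels. Between arithmetic means of the linear levels, an alternative added after the data were seen, it was -1.49. Both assays have the fixed knockdown mean, so the latter value is the intact gap with its sign turned. Beyond that gap, -2.83 holds only the unequal split of the fixed means among the knockdown samples. Its p-values below are thus no test of how Dicer-cut and Ago2-cut miRNAs responded to the knockdown. The change of -2.83 reached p = 0.1 in an exact two-sided permutation test over samples, the smallest p that 3 against 3 allows. In a limma fit of the other 94 assays relative to miR-451, miR-144 was lower in knockdown samples (SE 0.95, 95% interval -4.92 to -0.75, adjusted p = 0.0263). So were 59.6% of those assays, while 4.26% were higher. The change was -3.89 without knockdown sample 3 and -2.07 without knockdown sample 2.

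Relative to miR-486 both miRNAs of the cluster were lower in knockdown samples. miR-144 read 4.31, 3.31 and 4.62 above miR-486 in intact samples, and -2.53, -3.64 and 2.01 relative to it in knockdown samples. The change was -5.47 (exact two-sided permutation p = 0.1), with a 95% interval from -7.75 to -3.18 in the limma fit relative to miR-486 (adjusted p = 5.71e-05). It was -7.16 without knockdown sample 3 and -4.34 without knockdown sample 2. With arithmetic means of linear levels it was -4.00, again the intact gap with its sign turned, since both knockdown means are fixed. miR-451 read 2.59, 1.78 and 3.36 above miR-486 in intact samples, against -0.62, -0.79 and 1.24 in knockdown samples. Its change was -2.63 (exact two-sided permutation p = 0.1), with a 95% interval from -4.58 to -0.68 in the same fit (adjusted p = 0.012), and -3.28 without knockdown sample 3. Its value with arithmetic means, -2.51, is likewise the intact gap. The log2 changes, too, hold the mean intact gaps, 4.08 for miR-144 and 2.57 for miR-451. The rest is the unequal split of the fixed means, and for miR-451 the knockdown mean of the pair was -0.06. The p-values of both changes are thus no test of a response of the cluster to the knockdown. Relative to miR-486, 88.3% of the assays were lower in knockdown samples, so both results are shared with most of the array. By readings the order was miR-144, miR-451, miR-486 in all intact samples and in knockdown sample 3, and the reverse in knockdown samples 1 and 2.

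**Figure D3:**
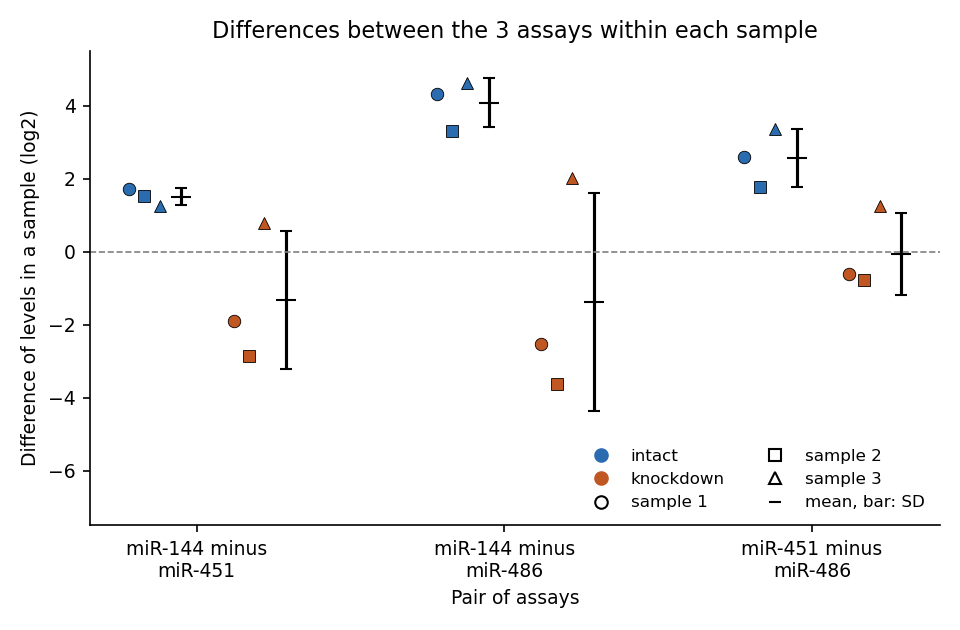
Difference of 2 assay levels within each sample (log2) for the 3 pairs, in intact and knockdown samples (points), with the group mean and SD as bars. In every pair the 3 knockdown values lie below the 3 intact values, with knockdown sample 3 nearest to the intact samples.

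On a linear scale the knockdown samples divided their fixed total very unequally for miR-144. Its linear levels were 0.137, 0.123 and 2.74 times U6, so knockdown sample 3 held 91.3% of the group's sum. For miR-451 they were 0.515, 0.885 and 1.60 times U6, with 53.4% in knockdown sample 3. For miR-486 they were 0.789, 1.53 and 0.680 times U6, with 51.0% in knockdown sample 2 and 22.7% in sample 3. The ratio of the highest to the lowest knockdown sample was thus 22.3 for miR-144, 3.11 for miR-451 and 2.25 for miR-486. In intact samples the ratios were 1.14, 1.38 and 2.17, in the same order of assays. The SD of miR-144 in knockdown samples was the 8th largest of the 95 assays, where the median was 0.80, while its intact SD ranked 89th. Of the 88 assays with a fixed mean, 40 were highest in knockdown sample 3, 26 in sample 2 and 22 in sample 1. In 6 of the 88 one sample held over 90% of the sum. Besides miR-144 these were miR-142-5p, miR-21, miR-1894-5p and the star strand miR-106b*, all highest in knockdown sample 3, and miR-30a, highest in sample 1. For assays of plate 2, miR-1894-5p and miR-106b* among them, these counts and shares use U6 of plate 2. Their fixed mean is relative to U6 of plate 1, so the sum divided here is not the fixed total.

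**Figure D4:**
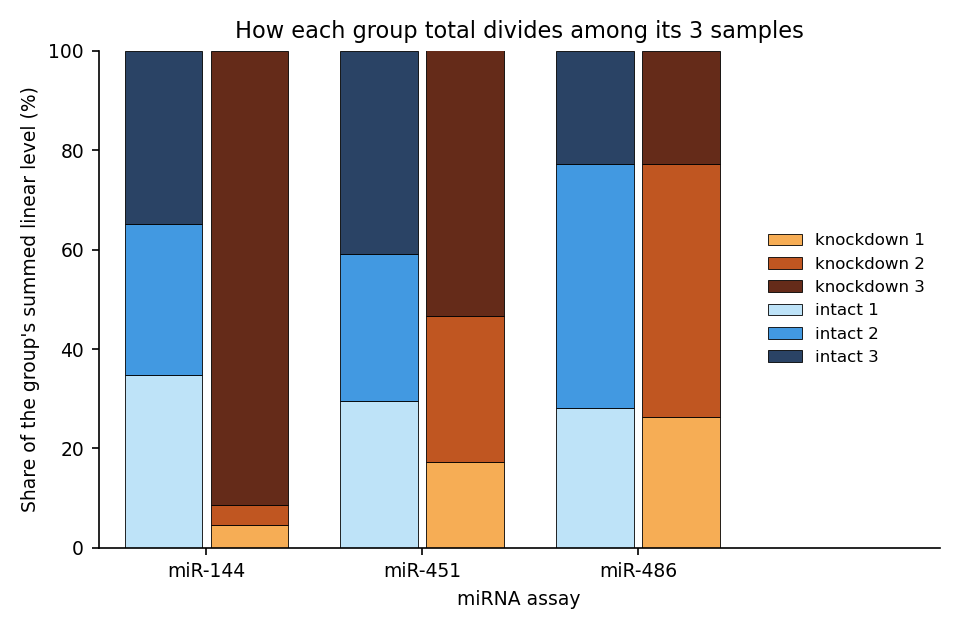
Share of each group's summed linear level (y axis, percent) held by each of its 3 samples, for the 3 assays. Knockdown sample 3 holds 91.3% for miR-144, 53.4% for miR-451 and 22.7% for miR-486, while no intact sample holds more than 49.2%.

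The way of averaging therefore mattered most for miR-144. In the authors' deposited table the fold of intact over knockdown was 31.5 for miR-144, 4.41 for miR-451 and 0.712 for miR-486, and the folds recomputed from mean log2 levels round to the same values. Taken between arithmetic means of the linear levels they were 11.3, 4.02 and 0.705. Since the knockdown mean is 1.00 for each assay, these equal the intact linear means of 11.3 ± 0.848, 4.02 ± 0.781 and 0.705 ± 0.296 times U6 (SD, n = 3 each). The mean log2 levels of miR-144 differ by more because a mean of logs lies further below the log of the mean where values are spread, as its knockdown values are.

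**Figure D5:**
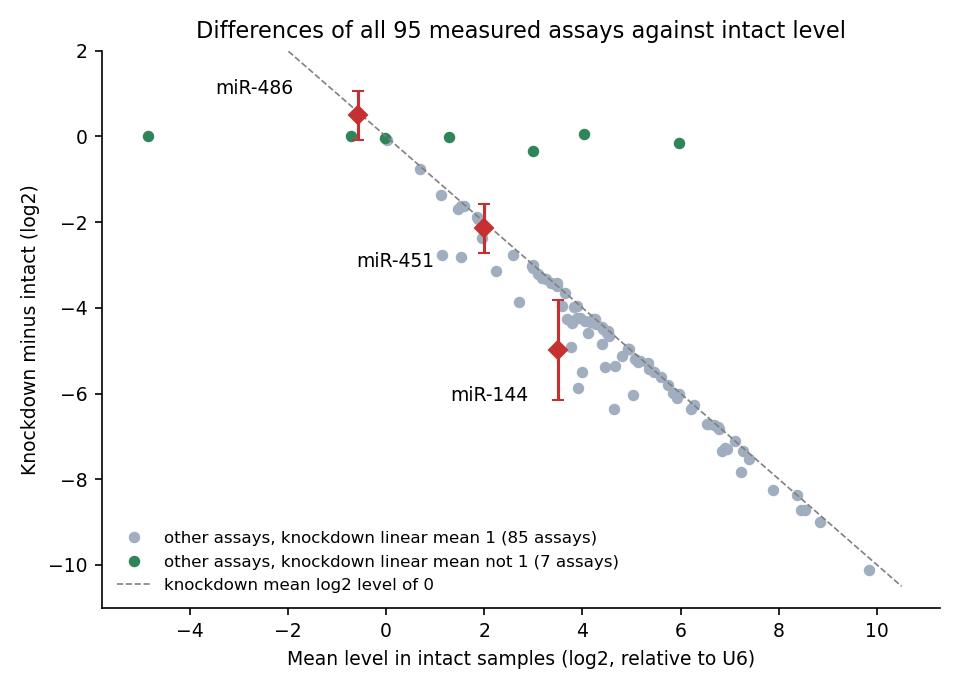
Knockdown minus intact difference (log2) of all 95 measured assays against their mean intact level (log2, relative to U6), with miR-144, miR-451 and miR-486 as red diamonds (bars: SE). The dashed line marks a knockdown mean log2 level of 0: miR-451 and miR-486 lie near it and miR-144 lies below, at -4.98 for an intact level of 3.50.

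The assays most like each member over the 6 samples were found by Pearson's r of the levels, given as a description. These samples fall into 2 groups that set most correlations on the array (median r with miR-144 0.837). miR-144 was most like miR-142-5p (r = 0.994), a miRNA of blood cells, miR-1895 (r = 0.992) and let-7d (r = 0.980). miR-142-5p stood at 4.58, 3.10 and 4.01 in intact and at -3.65, -3.75 and 1.51 in knockdown samples, with knockdown sample 3 again the highest of its group. miR-451 was most like miR-146b (r = 0.983), miR-106b (r = 0.981) and miR-134 (r = 0.977). Its r with miR-144 was 0.958, which ranked 5th for miR-451 and 9th for miR-144 of 94 assays. miR-486 had r = -0.620 with miR-144 and -0.515 with miR-451, against a median of -0.441 over the array. Its highest r was with miR-103 (0.583), miR-470 (0.366) and miR-293 (0.150), 3 assays that did not pass and are among the 7 without a fixed knockdown mean.

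Other miRNAs of red cells were a list of 17. Of these 11 had values, and 10 fell, 0 rose and 1 did not pass (limma), where 84.2% of all assays fell. Their median difference was -4.27 beside -4.54 over all assays. miR-191, which holds back the loss of the nucleus in maturing red cells, was at -8.37 (SE 0.49), miR-92a at -3.66 (SE 0.45) and miR-22 at -3.95 (SE 0.51). miR-210, a hypoxia-induced miRNA, was at -0.33 (SE 0.63, limma adjusted p = 0.663), and its knockdown mean was not fixed. When centred, 1 of the 11 lay above the mean change and 2 below, beside 20% of all assays on each side. The other 6, namely miR-16, miR-15a, miR-15b, miR-142-3p, miR-96 and miR-182, had no value in any sample.

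Of 9 miRNAs that restrain red cell formation or are turned down during it, 5 had values. Among them 4 fell and 1 did not pass, beside 84.2% of all assays that fell, with a median of -4.95. These were miR-222 (-3.02, SE 0.48), which represses the stem cell receptor Kit, miR-24 (-4.95, SE 0.48), miR-223 (-5.50, SE 0.53), which represses Lmo2, and miR-150 (-5.39, SE 1.16), which represses Myb. The rounded values of miR-24 (intact 4.93 ± 0.28, knockdown -0.03 ± 0.33, SD) equal those of miR-199a-3p, which is counted below as a stromal marker. Whether these are separate readings was not tested. miR-103 was at 0.05 (SE 0.65, limma adjusted p = 0.987). miR-103 and miR-222 lay above the mean change when centred, as did 20% of all assays. The miRNAs listed for opposite roles in red cell formation were thus both mostly lower, near the share of the whole array.

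miR-451 was also read beside miRNAs that skip Drosha or Dicer. Of 9 listed, 4 had values and 4 fell, where 84.2% of all assays did, with a median of -2.78. miR-320, whose precursor is made without Drosha, was at -5.24 (SE 0.51), miR-1981 at -3.41 (SE 0.67) and miR-1839-5p at -1.69 (SE 0.59), beside miR-451 at -2.14. All 4 have the fixed knockdown mean, so their order follows intact levels of 5.17, 3.49, 1.46 and 1.99 in the order named. Centred on the measured miRNAs, 2 of the 4 lay above the mean change, miR-451 and miR-1839-5p, as did 20% of all assays.

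Markers of other cells that marrow could hold were read on the same array, where 84.2% of the 95 assays passed as lower in knockdown samples and 20% passed on each side of the mean change when centred. Of 7 osteoclast and myeloid markers, 4 had values and 4 fell, and centred 1 lay below the mean change (miR-342-3p). miR-142-3p, miR-155 and miR-146a of that list had no value. Of 5 lymphoid markers 3 had values and 3 fell, and centred 0 passed. Of 6 stromal markers 5 had values and 5 fell, and centred 2 lay below the mean change (miR-143 and miR-214). Among the 5, miR-199a-3p has the same rounded values as miR-24, as said above. Of 5 megakaryocyte and endothelial markers 2 had values. miR-126-3p fell, while miR-99a was at -0.08 (SE 0.52, limma adjusted p = 0.924) and lay above the mean change when centred. The counts are near the share of the whole array. In intact samples the summed linear level was 14.9 to 17.2 times U6 for the 3 erythroid miRNAs. It was 171 to 351 for the osteoclast and myeloid list, 38.2 to 68.1 for the lymphoid, 245 to 470 for the stromal and 9.96 to 44.7 for the megakaryocyte and endothelial list. These sums add readings of different assays. In knockdown samples they ranged from 1.44 to 5.02 for the erythroid miRNAs and from 1.96 to 8.02, 2.28 to 4.09, 3.86 to 5.60 and 1.19 to 2.69 for the other lists in that order. Every one of these assays has the fixed knockdown mean, so each knockdown sum averages to the number of assays in its list by construction, and nothing is read from its distance to the intact sum. Which cells of the sorted samples carried miR-144, miR-451 and miR-486 was not tested, since messenger RNAs such as those of globins were not measured on this array.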

How the data were processed

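Per the labels' protocols, Trizol RNA went through the QuantiMir RT kit and 40 cycles of SYBR Green PCR (ViiA7). The authors deposited Ct values, delta Ct values on a log2 scale (Ct minus U6 of the same sample and plate, checked on the values) and folds of intact over knockdown. The sources used here do not state the Ct threshold, the amplification efficiency or the rule for Null. IDs of 48 wells, turned into scientific notation, were restored, that of miR-144 among them. Levels were compared with limma 3.58.1 in R 4.3.3 (lmFit, eBayes, no covariate, two-sided) over the 95 assays with a Ct under 35 in at least 3 samples, with Benjamini-Hochberg adjustment and a threshold of 0.05. The fit was tested on simulated data without fixed group means, so that test does not cover the fixed knockdown means of these data. Within-sample differences had exact permutation tests. Values with a fixed group mean are not independent, although the tests assume it. A PCR array has no depth, and the number of samples limits its precision (median residual SD 0.816 log2 units). Hairpins were folded with RNAfold 2.7.2. Named miRNAs are the members, all measured assays of the lists, the 3 most correlated assays per member, and a few chosen after their values were seen (assays near U6 or with over 90% of the sum in 1 sample). Members and lists were chosen with earlier results of these data known. Alternatives were the reference, normalization, filter, trend, replicate block, averaging and leaving out each sample.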

Additional observations from a re-analysis of the deposited data

How the results depend on the processing

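The number of assays past the limma threshold was 80 relative to U6, 38 when samples were centred on the measured miRNAs (19 lower, 19 higher) and 13 after quantile normalization (5 lower, 8 higher). In the other alternatives it ran from 75 to 84. Centring gave -0.49 for miR-144, 2.34 for miR-451 and 4.97 for miR-486 (limma adjusted p = 0.809, 0.0164 and 0.0012). Quantile normalization gave -1.06, 1.59 and 4.16 (limma adjusted p = 0.781, 0.233 and 0.0305). These settings subtract most of the change of all assays, whose median moved from -4.54 to -0.06 and -0.14. With minus Ct and no reference the differences were -5.58, -2.75 and -0.12, and miR-486, which passed in neither, changed sign. Without 1 sample, miR-144 ran from -6.44 to -4.20, miR-451 from -2.56 to -1.74 and miR-486 from 0.14 to 0.81, with no change of call. The within-sample changes passed only in the limma fits relative to the second miRNA (-2.83 with adjusted p = 0.0263, -5.47 with 5.71e-05 and -2.63 with 0.012), since the exact test cannot reach 0.05. Those fits, too, treat the fixed knockdown means as measured values. With arithmetic means of linear levels, added after the data were seen, the change was -1.49 for miR-144 minus miR-451, -4.00 for miR-144 minus miR-486 and -2.51 for miR-451 minus miR-486. With the replicate number as a block, 82 assays passed, and the limma adjusted p was 0.000948 for miR-144 (-4.98), 0.0112 for miR-451 (-2.14) and 0.486 for miR-486 (0.49). In the blocked fits relative to the second miRNA the changes were -2.83 (adjusted p = 0.0323), -5.47 (4.86e-05) and -2.63 (0.00263). Deviations of same-numbered samples correlated at 0.025, 0.101 and 0.081 across assays, and those of different-numbered samples at -0.085 to 0.027. The fixed means constrain the knockdown deviations, so these values do not settle whether the numbers pair the samples.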

Other observations

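miR-16, which is found at high level in red cells and in most other cells, had no value in any of the 6 samples, as had its seed relatives miR-15a and miR-15b, while miR-451 and miR-144 were read at a mean Ct of 27.7 and 26.2 cycles in intact samples. Whether these assays failed or the miRNAs were below the limit was not tested.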
